A study of Mus musculus with 6 samples.

Results

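Integrins are adhesion receptors of the cell surface, each made of 1 alpha chain and 1 beta chain. In the platelet membrane the complex of αIIb (Itga2b) with β3 (Itgb3) is the fibrinogen receptor through which platelets bind each other, α2 (Itga2) with β1 (Itgb1) binds collagen, α6 (Itga6) with β1 binds laminin, α5 (Itga5) with β1 binds fibronectin, and αv (Itgav) with β3 binds vitronectin. The remaining chain, β2 (Itgb2), is best known from leukocytes, where it pairs with αL, αM or αX. These 8 genes were taken by symbol from the deposited table of 14975 genes, and all 8 were found in it. With a mean of at least 1 FPKM (reads per kilobase of gene, scaled to library size) over the libraries, 7 of the 8 were among the 4412 genes tested between groups, and Itga5 was not.

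The values come from RNA-seq of mouse blood platelets, with 3 control and 3 pre-AML libraries, called control 1 to 3 and pre-AML 1 to 3 here. The sample labels name the genotypes WT and AML on a C57BL/6 background, and the study's methods describe female mice 8 to 12 weeks old. Recipients were B6.SJL or C57BL/6 mice by those methods. Control mice had been transplanted with normal bone marrow cells, and pre-AML mice, 1 week before sampling, with leukemic cells made by infecting blood stem and progenitor cells with a retrovirus that carries MLL-AF9 and GFP. The paper describes the recipients of both groups as irradiated, with transplant controls taken at the same time points as leukemic mice. Its methods give sub-lethal irradiation for secondary recipients of leukemic cells and state no dose for controls. The origin of the platelets from host or transplanted cells was not tested here. The labels mention 2 replicates a group and pools of 3 to 4 mice, while the study's methods state 3 independent mice, so the spread between libraries may be that of pools or of single animals. Platelets had been freed of cells with CD45 or Ter119 before RNA was taken, and the cDNA was amplified before sequencing.

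Reads recovered from the FPKM values and gene lengths lay between 11935649 and 17778073 per library. Pre-AML 3 was the deepest library and stood apart on the first principal component, at 41.9 against -12.7 to -2.12 for the other 5, and the library size behind its FPKM values was 1.31 times its recovered reads, against 0.983 to 1.01 in the others. The platelet markers differed widely in level. Pf4, which encodes platelet factor 4, was the highest, between 38150 and 79255 FPKM, and Gp1bb the lowest, between 2.42 and 4.78 FPKM. All 12 platelet markers were listed above 0 in each library, and their summed level was 89029 to 113185 FPKM in controls and 60614 to 91389 FPKM in pre-AML platelets. Ptprc, which encodes CD45, was at most 0.0863 FPKM in controls and at 0.140, 0.179 and 1.57 FPKM in pre-AML 1 to 3.

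Genomic positions are on GRCm38 (mm10), from GENCODE M21. Itga2b (Entrez gene 16399) lies on chromosome 11 from 102453297 to 102470122 on the minus strand and Itgb3 (16416) on the same chromosome from 104608000 to 104670476 on the plus strand. Itgb1 (16412) is on chromosome 8 from 128685654 to 128733200 and Itgb2 (16414) on chromosome 10 from 77530252 to 77565708, both on the plus strand. Itga2 (16398) is on chromosome 13 from 114833081 to 114932100 and Itga5 (16402) on chromosome 15 from 103344286 to 103366763, both on the minus strand. Itga6 (16403) and Itgav (16410) are on chromosome 2, from 71745616 to 71858416 and from 83724397 to 83806916, on the plus strand. Of the 8, only Itgav shares exonic bases with another annotated gene, 634 bases with the antisense transcript Gm13684. Since the library kit does not mark strand, reads there cannot be divided between both.

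Promoters of RefSeq on GRCm38.p6 were found for 5 of the 8 genes (Itga2b, Itga2, Itgb1, Itga5 and Itgav). The 250 bases before the RefSeq start are printed 5′ to 3′ on the strand of the gene for Itga2b, the most abundant alpha chain, for Itgav, the other alpha chain of β3, and for Itga5, the least abundant. For Itga2b the RefSeq start lies inside the GENCODE span given above, and so does most of its window. Capitals mark matches on either strand to AGGAAG or CGGAAG, which hold the GGAA core bound by factors of the ETS family. They lie at chr11:102469884-102470133 (minus strand), chr2:83724147-83724396 (plus strand) and chr15:103366792-103367041 (minus strand).
Itga2b: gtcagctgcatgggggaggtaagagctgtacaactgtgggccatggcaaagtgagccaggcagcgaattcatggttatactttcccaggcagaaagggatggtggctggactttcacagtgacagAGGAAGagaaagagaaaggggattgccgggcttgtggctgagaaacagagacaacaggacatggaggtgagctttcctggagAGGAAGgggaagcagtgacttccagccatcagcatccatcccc
Itgav: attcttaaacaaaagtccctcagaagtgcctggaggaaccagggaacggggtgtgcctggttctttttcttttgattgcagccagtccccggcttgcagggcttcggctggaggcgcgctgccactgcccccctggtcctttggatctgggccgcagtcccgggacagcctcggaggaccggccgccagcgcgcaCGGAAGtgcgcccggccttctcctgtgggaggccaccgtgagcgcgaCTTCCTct
Itga5: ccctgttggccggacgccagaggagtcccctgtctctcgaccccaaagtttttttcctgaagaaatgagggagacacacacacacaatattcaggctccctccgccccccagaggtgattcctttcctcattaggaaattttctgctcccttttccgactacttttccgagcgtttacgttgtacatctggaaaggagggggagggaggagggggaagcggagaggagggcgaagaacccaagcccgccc
The ETS letters were found 2 times each in the windows of Itga2b (starting 125 and 43 bases before the RefSeq start), Itgav (55 and 8 bases before it) and Itgb1 (63 and 56 bases before it), and 0 times in those of Itga2 and Itga5. At least 1 match occurs in 39.2% of all 32851 promoter windows of this length. For GATA factors the letters AGATAA, the form AGATAG, the form TGATAA and the form TGATAG were searched on both strands. They had 0 matches in the 5 windows and so no overlap with the ETS letters there, and 26.5% of all windows hold 1 or more.

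In every library the 8 genes fell into the same order of FPKM, a measure per length that allows genes to be compared. Itga2b stood first, followed by Itgb3, Itgb2, Itgb1, Itga6, Itga2, Itgav and Itga5. The ranges of neighbours in this order did not overlap within the controls or within the pre-AML libraries, although the step from Itgb2 to Itgb1 was small in controls, with a ratio of means of 1.18. Itga2b ranked between 32 and 41 among the 14975 genes of each library, and Itgb3 between 77 and 98. Itgav ranked between 3620 and 5144, so that of both alpha chains that β3 can take, only αIIb had an abundant transcript.

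**Figure D1:**
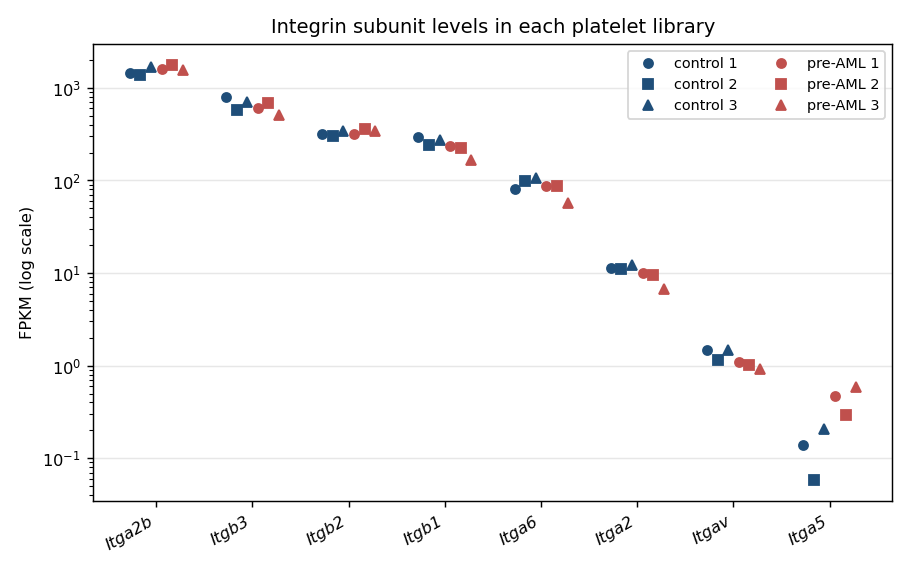
FPKM of the 8 integrin genes (log scale) in the 3 control (blue) and 3 pre-AML (red) libraries, with 1 point per library and genes in order of their mean. The order holds in all 6 libraries and spans from Itga2b at 1389 FPKM or more to Itga5 at 0.582 FPKM or less.

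Transcripts of both chains of the fibrinogen receptor were abundant. Itga2b was at 1449.6, 1389 and 1696 FPKM in controls 1 to 3 and at 1599, 1778 and 1545 FPKM in pre-AML 1 to 3. The highest value was in pre-AML 2, the lowest in control 2, and the groups overlapped. The 95% interval of its log2 fold change, 0.12, ran from -0.18 to 0.43 in limma-trend, and the sign turned to -0.070 after a loess correction of each library for transcript GC content and length. Itgb3 was at 792, 576 and 700.1 FPKM in controls 1 to 3 and at 611, 685 and 510.2 FPKM in pre-AML 1 to 3. Its highest value was in control 1 and its lowest in pre-AML 3, with overlap between the groups, and its log2 fold change of -0.19 had an interval from -0.58 to 0.20. Without pre-AML 3 it was -0.079. Over the 8 genes, Itga2b held between 49.1% and 54.1% of the summed FPKM in controls and between 55.8% and 58.7% in pre-AML platelets. How often such shares separate for other genes was not counted.

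The chains of the collagen and laminin receptors had lower means in pre-AML platelets, and none of them passed the test. Itgb1, the common beta chain of these receptors, was at 296, 245 and 277 FPKM in controls 1 to 3 and at 235, 222 and 167 FPKM in pre-AML 1 to 3. All 3 pre-AML libraries lay below all controls, and pre-AML 3 lay furthest down. The means were 273 ± 26.1 and 208 ± 35.9 FPKM (SD, n = 3 each), a log2 fold change of -0.40 with a 95% interval from -0.78 to -0.018. After Benjamini-Hochberg adjustment over 4412 genes, its adjusted p in limma-trend was 0.522. Itga2, the collagen-binding alpha chain, was at 11.4, 10.96 and 12.3 FPKM in controls 1 to 3 and at 9.89, 9.65 and 6.78 FPKM in pre-AML 1 to 3. Here too the groups did not overlap. For Itga2 the interval ran from -0.75 to -0.00043 around a log2 fold change of -0.37, again with an adjusted p of 0.522 in limma-trend. Without pre-AML 3 the log2 fold changes were -0.25 for Itgb1 and -0.22 for Itga2. Of the 12 platelet markers, 2 were likewise lower in all pre-AML libraries, as were 12.8% of all tested genes, namely Ppbp, for a chemokine of the granules, and Gp6, for the collagen receptor GPVI (log2 fold changes -0.39 and -0.43, adjusted p = 0.522 each in limma-trend).

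Itga6, the laminin-binding alpha chain, was at 81.4, 97.7 and 106 FPKM in controls 1 to 3 and at 88.2, 86.6 and 57.0 FPKM in pre-AML 1 to 3. Its groups overlapped, since control 1 was lower than pre-AML 1 and pre-AML 2. The log2 fold change of -0.31 (interval -0.76 to 0.14) was -0.11 without pre-AML 3, which was the lowest of all 6 libraries. Itgb1 exceeded the sum of its alpha chains Itga2, Itga5 and Itga6 in every library, since this sum was 0.314 to 0.444 times Itgb1 in controls and 0.385 to 0.434 times in pre-AML platelets.

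The 2 remaining alpha chains had few reads. Itgav had 188, 172 and 189 recovered reads in controls 1 to 3 and 158, 164 and 230 in pre-AML 1 to 3. In FPKM it was at 1.49, 1.14 and 1.48 in controls and at 1.11, 1.01 and 0.918 in pre-AML libraries, the latter all lower, and its log2 fold change was -0.23 (interval -0.63 to 0.16), or -0.44 in limma-voom. It was a member just inside the filter, with a mean of 1.19 FPKM. Itga5, the fibronectin-binding alpha chain and the one member below the filter (mean 0.292 FPKM), had 8, 4 and 12 reads in controls 1 to 3 and 31, 22 and 67 in pre-AML 1 to 3. Its FPKM values were 0.138, 0.0576 and 0.204 in controls and 0.472, 0.296 and 0.582 in pre-AML libraries, so every pre-AML library stood above every control, as did 7.53% of all 14975 genes. Fitted with no filter on low values, a choice made after seeing the data, Itga5 had a difference of 0.35 on the log2(FPKM + 1) scale, with an adjusted p of 0.705 in limma-trend (0.494 to 0.817 over the other settings). Its log2 fold change was 1.25 with a pseudocount of 0.1 and 1.89 in limma-voom, and the ratio of its mean FPKM was 3.37. Its unadjusted p was 0.0269, and 3.32% of the genes in that fit were higher in pre-AML platelets with an unadjusted p under 0.05. The deepest library, pre-AML 3, had the most reads.

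Of the 7 members tested, 0 had an adjusted p under 0.05 in limma-trend, and 0 had one in limma-voom on the recovered reads. Over all 4412 genes, 1 gene (0.0227%) passed upward and 0 (0%) downward. Taking an unadjusted p under 0.05 instead, 2 members (Itgb1 and Itga2) were lower and 0 higher, while 6.53% of all tested genes were lower and 2.56% higher at that level. The count of 2 was 0 without control 1, without control 3, without pre-AML 2 and after the loess correction, and 1 without control 2 or without pre-AML 3. Over all tested genes the lower count of 288 ran from 132 without control 1 to 447 without pre-AML 1. In 3 members (Itga2, Itgb1 and Itgav) all pre-AML libraries lay below all controls, which was so in 12.8% of the tested genes, and in 0 tested members they lay above, as in 6.14%. The median log2 fold change was -0.23 over the 7 members and -0.055 over all tested genes, and 5 of the 7 were below 0, against 2583 of the 4412. Without pre-AML 3 these medians were -0.11 and -0.021. In bulk RNA, fewer platelets that carry a transcript and less of it per platelet cannot be told apart.

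The scale of the libraries touched these counts. When each library was scaled to its recovered reads in place of the library size behind the FPKM values, the median of all tested genes moved from -0.055 to 0.051, Itgb1 to -0.27, Itga2 to -0.26, Itgb3 to -0.061 and Itga2b to 0.25. On that scale Itgb1 was at 291, 248 and 275 in controls 1 to 3 and at 231, 225 and 219.7 in pre-AML 1 to 3, and Itga2 at 11.2, 11.1 and 12.2 and at 9.72, 9.76 and 8.90. Both still did not overlap between groups, with 9.78% of genes lower in this manner, while Itgav did overlap.

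**Figure D2:**
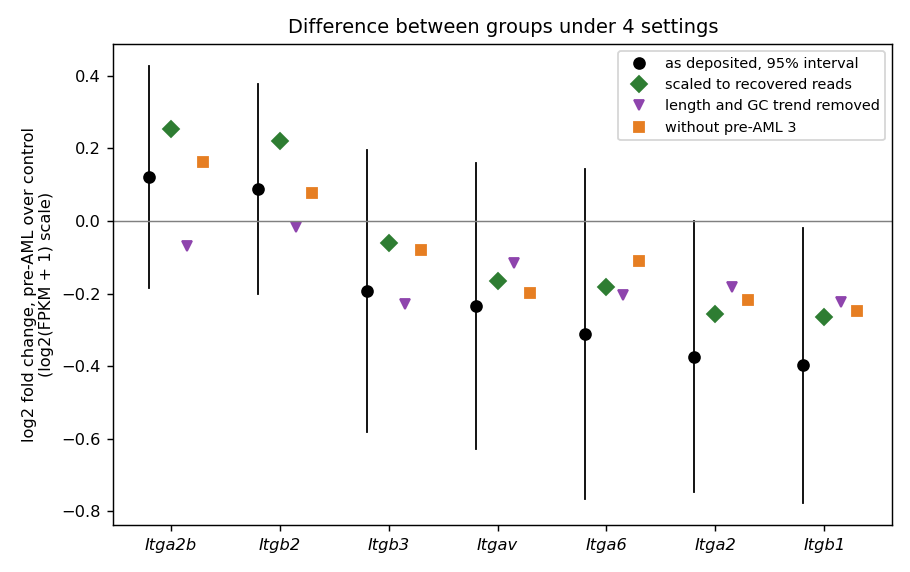
Log2 fold change of pre-AML over control on the log2(FPKM + 1) scale for the 7 tested integrin genes. Black points with bars are limma-trend estimates with 95% intervals, and coloured points are the estimates under 3 other settings. Itgb1 lies lowest at -0.40, and Itga2b and Itgb2 are above 0 except after the loess correction for length and GC content.

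The leukocyte beta chain was the third most abundant member. Itgb2 was at 321, 299 and 342 FPKM in controls 1 to 3 and at 320.3, 357 and 345 FPKM in pre-AML 1 to 3. The groups overlapped, with a coefficient of variation of 6.69% in controls and 5.44% in pre-AML platelets, and its log2 fold change was 0.089 (interval -0.20 to 0.38, adjusted p = 0.784 from limma-trend). Scaled to recovered reads it was at 316, 303 and 339 in controls 1 to 3 and at 315, 361 and 453 in pre-AML 1 to 3, so that pre-AML 3 was then the highest, with a log2 fold change of 0.22. Its recovered reads were between 11502 and 24581 per library. Its sign turned to -0.017 after the loess correction.

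Markers of other blood cells are given beside Itgb2. The 10 listed neutrophil markers summed to 3.19 to 3.66 FPKM in controls and 1.96 to 4.94 FPKM in pre-AML libraries, and Ly6g, Mpo, Elane and Retnlg were at 0 in all controls. The 8 B cell markers summed to 0.311 to 0.977 FPKM in controls and to 0.363, 4.60 and 59.6 FPKM in pre-AML 1 to 3, with Pax5 and Cr2 at 0 in all controls. Among the 12 monocyte and macrophage markers, Cd14 and Ccr2 were at 0 in all controls, and the list summed to 2386 to 2616 FPKM in controls and to 2489, 2340.0 and 3494 FPKM in pre-AML 1 to 3. Nearly all of that sum was Lyz2, for lysozyme, at 2333 to 3093 FPKM, and Tyrobp, the adaptor DAP12, was at most 0.533 FPKM in controls and at 4.85, 4.37 and 153 FPKM in pre-AML 1 to 3. From the same list, C1qb, C1qa, Adgre1, Cd68, Cd14 and Csf1r were at 128, 54.1, 24.6, 17.0, 11.7 and 7.30 FPKM in pre-AML 3. Each was at 0.527 FPKM or less in every other library, whereas Ms4a7 was at 0.0377 FPKM or less in all libraries. Of the 10 T and NK cell markers, Cd3g, Cd2, Ncr1 and Prf1 were at 0 in all controls, and Nkg7, at 18.9 to 28.2 FPKM in the 6 libraries, was the highest. The list summed to 19.1 to 28.6 FPKM in controls and to 34.5 to 45.0 FPKM in pre-AML libraries. Gzma, for granzyme A, was the 1 gene past the threshold. It was at 0, 0.353 and 0 FPKM in controls 1 to 3 and at 7.25, 4.61 and 8.90 FPKM in pre-AML 1 to 3. With a control mean of 0.118 FPKM, it was tested only because it was high in pre-AML libraries, and with no filter on low values 0 genes passed. In the list of general leukocyte genes, Laptm5 and Cd53 were the highest, at 729 to 866 and 25.1 to 54.4 FPKM, and Cd48 was at 0 in all controls. The 6 genes summed to 777 to 812 FPKM in controls and 809 to 904 FPKM in pre-AML libraries. The erythroid list, led by Hba-a1 and Hbb-bt for hemoglobin, summed to 2350.4 to 2652 and 2377 to 2991 FPKM, and the endothelial list, led by Vwf and Eng, to 73.2 to 88.2 and 72.7 to 98.7 FPKM, neither with a marker at 0 in all controls. The part of these cells in the levels of the integrin genes was not tested.

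Among the other integrin genes tested, Itgam and Itgb7 were high in pre-AML 3, and Itgal, Itgb5 and Itgb4 overlapped between groups. Of 18 other subunits looked for, 14 were in the table and 5 were tested, of which 0 had an adjusted p or an unadjusted p under 0.05 in limma-trend and 0 an adjusted p under 0.05 in limma-voom. Itgal, for αL, the partner of β2 in the receptor LFA-1, was at 36.1, 37.8 and 47.5 FPKM in controls 1 to 3 and at 38.3, 46.0 and 41.4 FPKM in pre-AML 1 to 3. Like Itgb2 it overlapped between groups, with a log2 fold change of 0.056 (interval -0.30 to 0.41). Itgb5, for β5, whose partner is αv, was at 38.2, 49.9 and 62.5 FPKM in controls and at 59.2, 61.6 and 55.8 FPKM in pre-AML libraries, far above the 1.49 FPKM or less of Itgav. Itgb4, for the β4 chain that pairs with α6, was between 3.47 and 5.02 FPKM in the 6 libraries.

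Itgam, for the αM chain of the β2 receptor Mac-1, was at 0 in all controls and at 0.236, 0.270 and 17.3 FPKM in pre-AML 1 to 3. Itgb7, for the β7 chain of lymphocytes, was at 0.0615, 0.0257 and 0 FPKM in controls and at 0.353, 0.598 and 12.2 FPKM in pre-AML 1 to 3. Both reached the filter of 1 FPKM only through pre-AML 3, so they were tested only because they were high in that group. Both were higher in every pre-AML library than in any control, as were 7.53% of all 14975 listed genes. Both were far higher in pre-AML 3 than in the others. Their log2 fold changes of 1.61 and 1.57 had an adjusted p of 0.532 and 0.522 in limma-trend, and are a description only. In pre-AML 3, Tyrobp, macrophage markers such as C1qb, the B cell list, Itgam and Itgb7 were high together. Itgb2 was highest there only when scaled to recovered reads, at 453 against 303 to 361 in the others, and not in FPKM. That scale raises every gene of pre-AML 3 relative to the other libraries. On it Itga2b and Itga5 were also highest in pre-AML 3 (Itga2b at 2028 against 1409 to 1800), and Itgb3, Itgb1, Itga2, Itga6 and Itgav were not. After the loess correction Itgb2 was lowest in pre-AML 3, at 8.27 against 8.29 to 8.48 on the log2 scale.

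**Figure D3:**
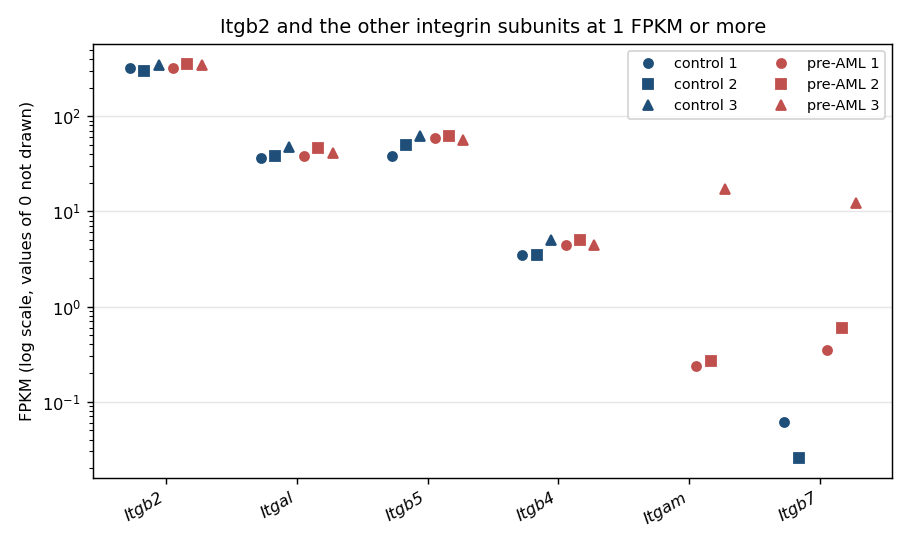
FPKM (log scale) of Itgb2 and of the 5 other integrin genes that reached a mean of 1 FPKM, in each library (control blue, pre-AML red; values of 0 are not drawn). Itgb2 lies between 299 and 357 FPKM and Itgal between 36.1 and 47.5 FPKM, whereas Itgam and Itgb7 reach 17.3 and 12.2 FPKM in pre-AML 3 only and stay under 0.6 FPKM in the others.

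Ratios of chains within a library do not depend on how libraries are scaled. The ratio of Itga2b to its partner Itgb3 was 1.83, 2.41 and 2.42 in controls 1 to 3 and 2.62, 2.60 and 3.03 in pre-AML 1 to 3. All pre-AML ratios were above all controls, and control 1 was the lowest. The mean log2 ratio was 1.14 ± 0.23 in control and 1.45 ± 0.13 in pre-AML platelets (SD, n = 3 each), a difference of 0.32 (two-sided exact permutation test, p = 0.1). With 3 against 3 libraries no smaller p can be reached. How often the ratios of other gene pairs separate in this way was not counted. The difference was 0.18 without control 1 (exact permutation test, p = 0.2).
The log2 ratio of Itgav to Itga2b was -9.93, -10.25 and -10.16 in controls 1 to 3 and -10.50, -10.78 and -10.72 in pre-AML 1 to 3, again without overlap, a difference of -0.55 (same exact permutation test, p = 0.1). For the beta chains, the share of Itgb2 in the sum of Itgb1, Itgb2 and Itgb3 was 22.8%, 26.7% and 25.9% in controls 1 to 3 and 27.5%, 28.2% and 33.7% in pre-AML 1 to 3. The pre-AML shares were all higher, with means of 25.1% ± 2.07 and 29.8% ± 3.43 (SD, n = 3 each; exact permutation test, p = 0.1). The difference of 4.68 percentage points was 2.71 without pre-AML 3.
The other ratios overlapped between groups. The log2 ratio of Itgb3 to Itgb1 was 1.42, 1.23 and 1.34 in controls 1 to 3 and 1.38, 1.62 and 1.61 in pre-AML 1 to 3 (exact permutation test, p = 0.2). That of the summed partners Itga2, Itga5 and Itga6 to Itgb1 was -1.67, -1.17 and -1.23 in controls and -1.25, -1.20 and -1.38 in pre-AML libraries (exact permutation test, p = 0.9).

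**Figure D4:**
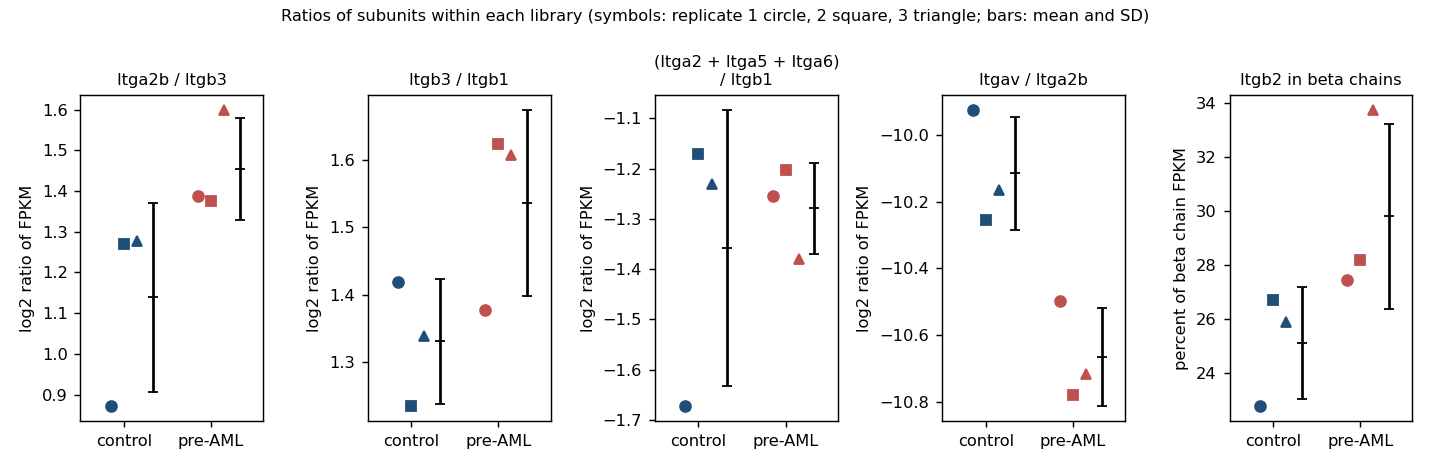
Log2 ratios of FPKM between integrin chains and the percent of Itgb2 among 3 beta chains, in each control (blue) and pre-AML (red) library, with group means and SD as bars. The ratio of Itga2b to Itgb3, that of Itgav to Itga2b and the share of Itgb2 do not overlap between the groups, and the other 2 do. The share of other gene pairs whose ratios separate was not counted.

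GC content moved with the differences. The GC content of the transcripts was 58.2% for Itga2b, 57.0% for Itga5, 53.4% for Itgb2, 51.7% for Itgb3, 47.2% for Itga6, 46.9% for Itgav, 44.7% for Itgb1 and 44.1% for Itga2. The 3 members with the highest GC content had a log2 fold change above 0 (Itga5 from the fit without a filter), and the 5 others were below 0. Among all tested genes with a GC value, the median log2 fold change was -0.24 in the third with the lowest GC content (up to 47.5%), where 13.8% of genes were above 0, and 0.11 in the third with the highest (from 53.1%), where 71.0% were. After the loess correction, Itgb1 was at -0.22 and Itga2 at -0.18, Itgb1 overlapped between the groups, and Itga2 did not. How often other genes separate after this correction was not counted. With that correction the ratio of Itga2b to Itgb3 and that of Itgav to Itga2b overlapped between groups (exact permutation test, p = 0.3 and 0.5), while the share of Itgb2, at 23.2%, 27.5% and 27.3% in controls 1 to 3 and at 27.8%, 28.1% and 30.6% in pre-AML 1 to 3, still did not (p = 0.1 from the exact permutation test).

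**Figure D5:**
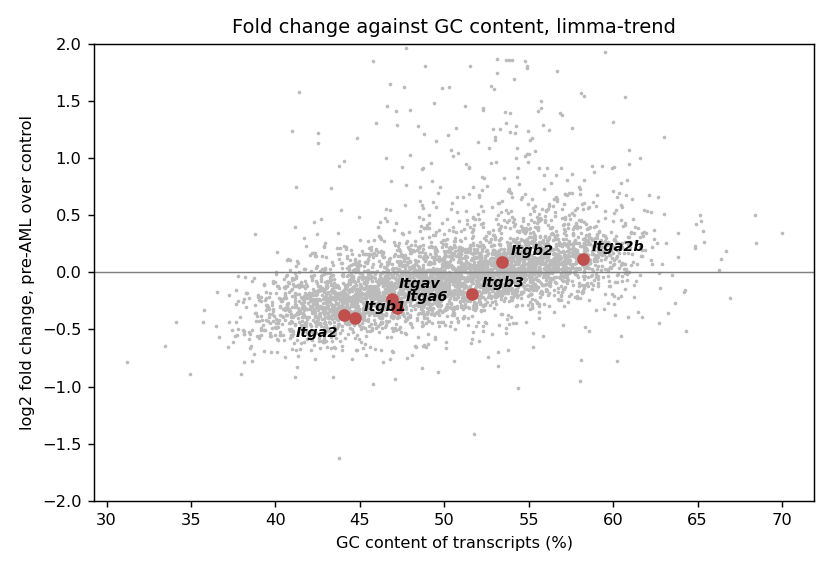
Log2 fold change (pre-AML over control, limma-trend) against the GC content of transcripts for 4397 tested genes (grey, 13 of them outside the plotted range) and the 7 tested integrin genes (red). Itga2 and Itgb1, with the lowest GC content of the members, lie lowest, and Itga2b and Itgb2, with the highest of those tested, lie above 0.

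Genes that switch integrins on or act at their tails had 0 calls in limma-trend. Among 10 activators, 9 were tested and 0 passed the threshold. Fermt3, for kindlin-3, which binds the beta tails, was between 832 and 1043 FPKM, Tln1, for talin, between 167 and 227 FPKM, and Rasgrp2, the exchange factor for RAP1, between 106 and 133 FPKM, each with overlap between groups. Both RAP1 genes, which carry the signal to talin, were lower in every pre-AML library than in the controls, as were 12.8% of all tested genes. Rap1b was at 484, 565 and 538 FPKM in controls 1 to 3 and at 470.1, 404 and 242 FPKM in pre-AML 1 to 3 (log2 fold change -0.56, unadjusted p = 0.0436 and adjusted p = 0.522 from limma-trend), and Rap1a had a log2 fold change of -0.68 with the same adjusted p. Apbb1ip, for the adaptor RIAM, was the activator below the filter, at 0.370 FPKM or less.

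Of 20 adaptors and kinases at the tails, 15 were tested and 0 passed, also at an unadjusted p under 0.05. The most abundant were Zyx (zyxin, 757 to 1015 FPKM), Parvb (beta-parvin, 253 to 374 FPKM), Flna (filamin A, 193 to 277 FPKM) and Lims1 (PINCH, 133 to 198 FPKM). Ilk, the kinase that binds parvin and PINCH, was listed at only 0.259 to 0.712 FPKM. Of 13 ligands, 11 were in the table and 5 tested, with 0 past the threshold. Thbs1, for thrombospondin 1, was between 861 and 1150 FPKM and Vwf, for von Willebrand factor, between 69.2 and 95.6 FPKM. Fn1, for fibronectin, was at 0, 0.231 and 0.0575 FPKM in controls and at 0, 0.244 and 49.8 FPKM in pre-AML 1 to 3, and Icam2, a ligand of LFA-1, at 1.119, 0.597 and 0.0883 FPKM and at 2.01, 1.497 and 22.6 FPKM (unadjusted p = 0.0375, adjusted p = 0.522 from limma-trend). Both were by far highest in pre-AML 3. Their control means, 0.0962 and 0.601 FPKM, were below the filter of 1 FPKM. They were tested only because they were high in pre-AML libraries, so these values are a description only. All 7 membrane partners were tested and 0 passed, among them Cd9, a tetraspanin, at 8070 to 12185 FPKM, Cd151, another, at 293 to 381 FPKM, Esam at 175 to 224 FPKM and Pecam1 at 150.3 to 211 FPKM. Over these 4 roles, 36 genes were tested, and limma-voom called 0 of them too. At an unadjusted p under 0.05, 1 of the 36 (Icam2) was higher and 2 were lower, against 2.56% and 6.53% of all tested genes. The median log2 fold change of the 36 was -0.0084, or 0.12 when scaled to recovered reads.

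Each member was also set beside all other tested genes by Pearson's r of log2(FPKM + 1) over the 6 libraries, which share their scaling and their trend with GC content. Of all tested genes, those nearest to Itga2b were Nlrx1, Nacc2 and Nkiras2 (r = 0.990, 0.984 and 0.981), and those nearest to Itgb3 were Surf4, Scamp5 and Dpp8 (r = 0.981, 0.980 and 0.979). For Itgb1 these were Rtn3, Akr1a1 and Akirin1 (r = 0.9995, 0.998 and 0.997), for Itga2 Cmas, Rab8b and Orc4 (r = 0.999, 0.998 and 0.995), and for Itga6 Dzip1, Lancl3 and Lhfp (r = 0.998, 0.997 and 0.994). The list for Itgav was Cdv3, Prkcd and Pdk1 (r = 0.994, 0.992 and 0.977), and that for Itgb2 was Irf7, H2ac15 and Ids (r = 0.987, 0.979 and 0.968). No member was among the 3 genes nearest to another. Between members, r was 0.19 for Itga2b with its partner Itgb3, 0.96 for Itga2 with its partner Itgb1, 0.77 for Itga6 with Itgb1 and 0.85 for Itga2b with Itgb2, which do not pair. With 6 libraries these values are a description only.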

How the data were processed

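Platelet RNA of 3 control and 3 pre-AML libraries was measured. The authors mapped reads to mm10 with STAR and used DESeq2 for their own tests, and deposited FPKM values for 14975 genes. The counting program and annotation are not given in the sources used here. With union exon lengths of GENCODE M21 (14911 genes matched), between 83.8% and 85.3% of values under 100 reads were within 0.05 of a whole read, and reads were recovered on that basis. Those of Itga5, Itgav and Itga2 were within 0.00401 of a whole number, and those of the abundant members are estimates. Intervals cover the spread between libraries, and read counts carry counting error besides.

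The 4412 genes whose mean reached 1 FPKM were compared on log2(FPKM + 1) by limma-trend in R 4.3.3 (limma 3.58.1) with no covariate. Benjamini-Hochberg adjusted p-values under 0.05 were called. Fold changes on this scale understate those of low genes. Ratios were compared by exact permutation tests (Python 3.11.15). The fit was also run on simulated reads. These had no GC trend and no outlying library, so that run does not show the power or error of the fit here. All members were named, other subunits and pathway genes by level within lists, and genes nearest a member by r. The members and lists were chosen with earlier results of these data known. Alternatives were the same sum of values, scaling to recovered reads, quantile normalization, a pseudocount of 0.1, dropping the filter, a minimum of 10 reads per library instead of it, limma-voom, the replicate number as a block, loess on gene length and GC content, and leaving out each library. The loess correction of ratios and the unfiltered fit of Itga5 were added after seeing the data.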

Additional observations from a re-analysis of the deposited data

How the results depend on the processing

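The 7 tested integrin genes had 0 calls at an adjusted p under 0.05 in each of the 15 alternatives, as had the other subunits and the pathway genes, and the lowest adjusted p of any member was 0.325 (Itgb1 without pre-AML 1). Itga5, fitted without the filter, could not be fitted with at least 10 reads in every library. With loess on gene length and GC content, Itga2b turned to -0.070, Itgb2 to -0.017 and the difference in the log2 ratio of Itgb3 to Itgb1 to -0.0050, and the cause was not tested. Leaving out 1 library moved the difference in the log2 ratio of the β1 partners to Itgb1 between -0.078 (without control 1) and 0.17. With the replicate number as a block, Itgb1 kept its log2 fold change of -0.40 with an adjusted p of 0.594, against 0.522 without it. The block moved the members lower at an unadjusted p under 0.05 from 2 to 0. The deviations of same-numbered libraries from their group means correlated at -0.043, -0.12 and -0.17, and those of libraries of different number at -0.096 to 0.17. Deviations from means of 3 libraries cannot decide whether libraries of equal number share more than the number. The sign-flip test over pairs of equal number can give no p below 0.25. Over all tested genes, the count of 1 past the threshold was 0 under 7 of the other settings and 2 without pre-AML 3, and those at an unadjusted p under 0.05 were 275 higher and 194 lower with the same sum of values, against 113 and 288. With 3 libraries a group and adjustment over 4412 genes, intervals as wide as those printed are the limit, and Itga5 is limited by its few reads.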
